A study of Mus musculus with 6 samples.

Results

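Genes of de novo lipogenesis, the building of fatty acids from sugar carbon, were followed in Hepa 1–6 cells given Shh or vehicle. They were picked by name from the gene table as the fatty acid synthesis enzymes Acly, Acaca, Acacb, Fasn, Elovl6, Scd1, Scd2 and Me1 and the liver transcription factors that drive them, Srebf1 and Mlxipl, and make up 10 of the 18169 genes in the table. Hepa 1–6 is a line from a mouse hepatoma, and all 6 libraries came from this unmodified line. The vehicle group (vehicle replicates 1 to 3) received the carrier alone, and the Shh group (Shh replicates 1 to 3) received Sonic hedgehog, the secreted ligand that activates Gli transcription factors through Ptch1 and Smoothened. The sources used here state neither how much Shh these libraries received nor for how long. The labels do not say whether a group's 3 libraries stem from separate cultures, and where the paper speaks of independent biological repeats it gives other assays as examples and does not name sequencing, so each p-value rests on a spread between libraries that may be technical. The study worked on fatty liver disease, in which lipogenesis in hepatocytes is a source of stored fat, and the comparison asked here is whether the RNA of these genes differed with Shh.

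In lipogenesis, citrate leaves the mitochondrion and is split by ATP citrate lyase (Acly) into acetyl-CoA in the cytosol. Acetyl-CoA carboxylase (Acaca in the cytosol, Acacb at the mitochondrial surface) turns it into malonyl-CoA, and fatty acid synthase (Fasn) joins these units into palmitate with NADPH, part of which malic enzyme (Me1) supplies. Elovl6 lengthens palmitate to stearate, and the desaturases Scd1 and Scd2 place a double bond to give the monounsaturated acids of triglyceride. In liver, insulin acts on these genes largely through SREBP1 (Srebf1), a membrane-bound factor that is carried by Scap and cut before it enters the nucleus, and sugar acts through ChREBP (Mlxipl).

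Promoter sequence of the members is given first because the factors of this pathway are known for their DNA elements, and 3 windows are shown. Elovl6 is shown as the member with the smallest p, Fasn as the synthase of the pathway, and Mlxipl as the member whose window held an E-box. Each is the run of 250 bases before a RefSeq transcription start (GRCm38.p6), 5′ to 3′ on the gene's strand. Capitals mark every match, on either strand, to the E-box CACGTG, the core of the sterol regulatory element TCACNCCA, and the NF-Y element CCAAT, which reads ATTGG on the other strand. In the Fasn window, 2 of the CCAAT matches overlap.
Elovl6 (chr3:129532136-129532385, + strand): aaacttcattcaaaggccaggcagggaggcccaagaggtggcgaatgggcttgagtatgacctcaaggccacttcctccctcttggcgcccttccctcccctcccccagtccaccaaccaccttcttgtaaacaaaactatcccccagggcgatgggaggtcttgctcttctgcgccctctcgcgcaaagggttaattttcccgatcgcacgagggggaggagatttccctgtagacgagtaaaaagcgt
Fasn (chr11:120824548-120824797, - strand): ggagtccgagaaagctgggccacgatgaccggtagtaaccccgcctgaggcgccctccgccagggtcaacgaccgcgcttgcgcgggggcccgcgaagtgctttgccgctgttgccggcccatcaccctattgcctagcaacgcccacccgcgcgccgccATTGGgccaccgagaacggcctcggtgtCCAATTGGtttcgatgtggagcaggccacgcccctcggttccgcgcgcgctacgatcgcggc
Mlxipl (chr5:135089640-135089889, + strand): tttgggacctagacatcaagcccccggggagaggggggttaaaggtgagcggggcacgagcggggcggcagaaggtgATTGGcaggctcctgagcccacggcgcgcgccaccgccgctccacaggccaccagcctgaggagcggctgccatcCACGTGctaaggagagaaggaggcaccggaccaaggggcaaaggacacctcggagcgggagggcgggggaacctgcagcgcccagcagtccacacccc
The RefSeq table held windows for 8 of the 10 members (12 windows, as Me1, Srebf1 and Mlxipl have several starts). Scd1 and Scd2 were not matched. The E-box occurred in 1 member's window, at -98 of the Mlxipl start shown, where -1 is the base before the start, and in 6.02% of all 32851 windows. A CCAAT match occurred in the windows of Fasn (at -90, -62 and -59), Acacb (-87), Me1 (-208), Srebf1 (-166 and -30, in separate windows) and Mlxipl (-173), and in 33.9% of all windows. The Elovl6 and Acaca windows held none of these letters and no GC box (GGGCGG). A GC box occurred in windows of Acly, Me1, Srebf1 and Mlxipl, and in 32.7% of all windows. The sterol element core was found in the other Mlxipl window (-136) and in 3.67% of all windows. These are matches of letters alone.

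Library totals were alike, from 20253781 to 20335463 estimated counts. By chi-square of their counts, divided by its degrees of freedom, vehicle libraries differed from each other by 1.72 to 2.35 and Shh libraries by 4.20 to 9.66, and Shh replicate 2 stood farthest from the vehicle libraries (9.81 to 12.3, against 2.22 to 2.70 for Shh replicate 1). Of 10 hepatocyte and hepatoma markers, 7 had a mean of at least 5 CPM, counts scaled to library size. Alb, Afp and Hnf4a were among them, whereas Ttr reached at most 0.594 CPM and Serpina1a was at 0 in all Shh libraries and in vehicle replicate 1, so the label hepatocyte holds for part of its defining markers. Summed over the list, these markers were 5636 to 5695 CPM with vehicle and 5313 to 5634 CPM with Shh. Every Shh sum was below every vehicle sum, but Shh replicate 1 (5634 CPM) lay next to vehicle replicate 3 (5636 CPM). Of all genes tested, 8.67% had every Shh library below every vehicle library. In Shh replicate 1, 3 of the 10 markers were above all vehicle libraries. The part of these markers in the members' values was not tested. Direct Shh targets gave little contrast, since Gli1 had 2.50, 2.14 and 2.37 CPM with vehicle and 2.33, 2.70 and 2.16 CPM with Shh, and Ptch1 had 35.6, 31.4 and 36.3 CPM against 33.8, 36.9 and 34.8 CPM. Their log2 fold changes were 0.036 and 0.030 by edgeR, and both changed sign under other settings.

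All 10 members passed the expression filter, as did 12286 genes in all. No member differed at an adjusted p under 0.05 by edgeR, where the share of all genes called was 0% (1277 genes had an unadjusted p under 0.05 by edgeR and 814 by DESeq2, which likewise called 0). The adjusted p of the members ran from 0.469 to 0.965. Elovl6 alone had an unadjusted p under 0.05, on the higher side, against 4.83% of all genes higher and 5.56% lower at that threshold. In no member did every Shh library lie above every vehicle library, which 6.79% of all genes showed, or every Shh library below, which 8.67% showed. Fitted log2 fold changes were above 0 for 8 members and below 0 for Me1 and Srebf1, beside 51.2% of all genes above 0, and their median was 0.026 beside 0.0028 for all genes tested. Differences were small next to the span of levels, from -0.04 for Srebf1 to 0.20 for Mlxipl on the log2 scale.

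**Figure D1:**
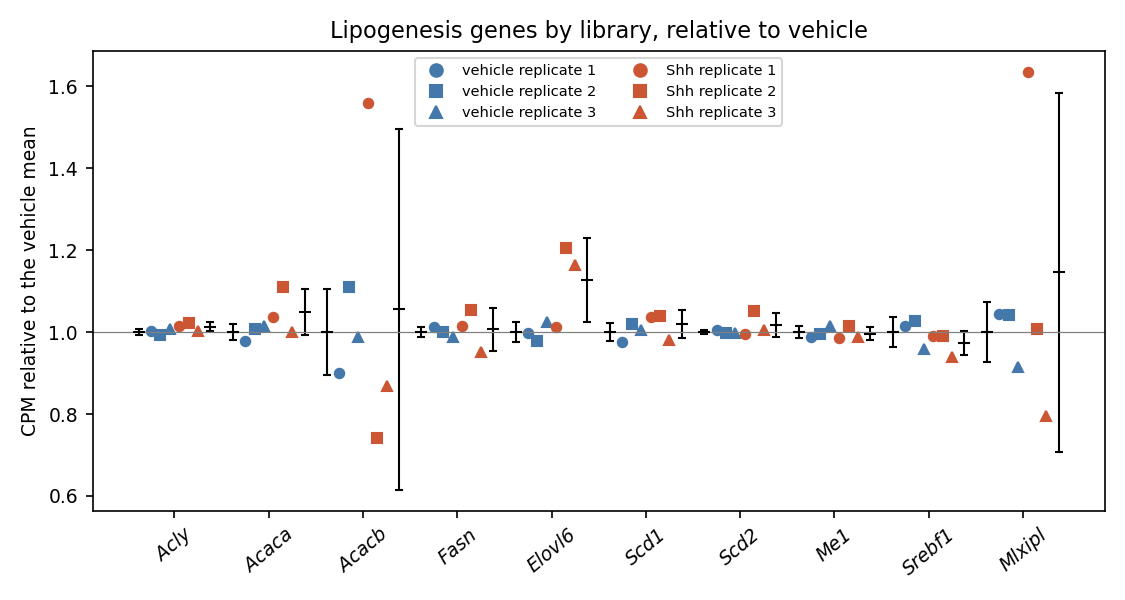
CPM of each lipogenesis gene relative to its vehicle mean (vertical axis, linear) in the 3 vehicle libraries (blue) and the 3 Shh libraries (red), with the mean and SD of each group in black. Most points lie close to 1, while Elovl6 is high in Shh replicates 2 and 3 and the low genes Acacb and Mlxipl are high in Shh replicate 1.

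Levels per length, as deposited FPKM, spanned 1049-fold from Scd2 to Acacb. Scd2, the desaturase form known for its expression outside adult liver, had a mean of 329 FPKM over the 6 libraries and made up 41.3% of the members' summed FPKM. Me1 followed at 111 FPKM, then Acly at 93.9, Scd1 at 93.5 and Fasn at 84.6 FPKM. Acly and Scd1 could not be ordered, as each was the higher in 3 of 6 libraries, and the ranges of Scd1 and Fasn overlapped although Scd1 was the higher in 6 of 6 libraries. Srebf1 had 57.1 FPKM, Elovl6 14.5 and Acaca 11.7 FPKM. Mlxipl (0.445 FPKM) and Acacb (0.313 FPKM) lay far below, with overlapping ranges. By mean CPM, which is not scaled to length, Mlxipl was the lowest member, and 10.8% of the genes tested lay below it. Per length, Srebf1 had 81.5 to 156 times the FPKM of Mlxipl over the 6 libraries, and Acaca 24.6 to 54.1 times that of Acacb, with both lowest ratios in Shh replicate 1.

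**Figure D2:**
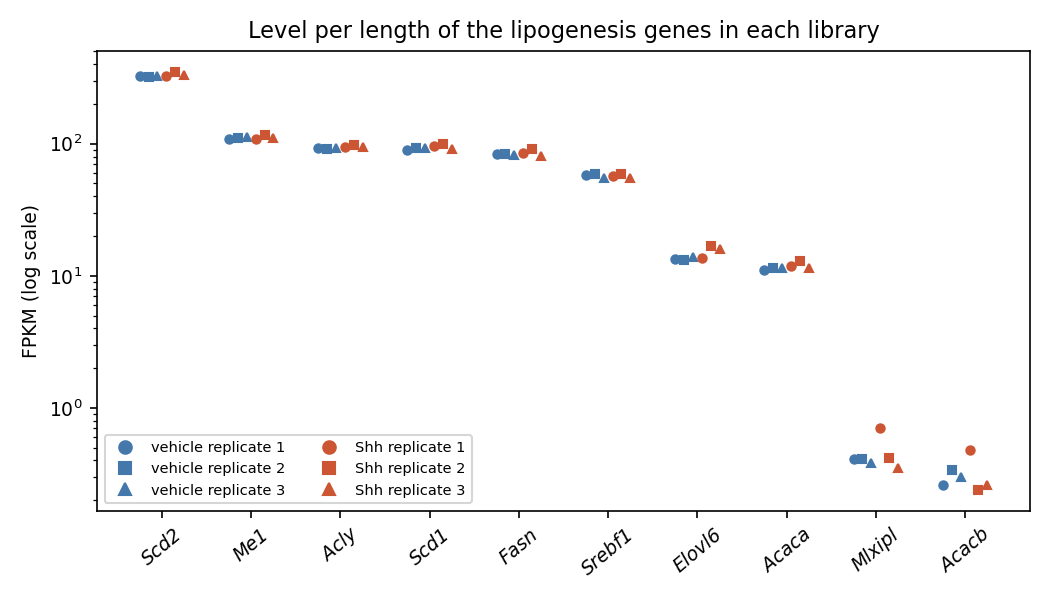
Deposited FPKM (vertical axis, log scale) of the 10 lipogenesis genes in each of the 6 libraries, ordered by their mean. Vehicle libraries are blue and Shh libraries red, and the order runs from Scd2 (329 FPKM) to Acacb (0.313 FPKM), with the 6 libraries of most genes close together.

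Acly, which makes cytosolic acetyl-CoA, had 408, 404 and 410 CPM in the vehicle libraries and 413, 417 and 409 CPM in the Shh libraries. The groups overlapped, and means were 408 ± 3.01 and 413 ± 4.14 CPM (SD, n = 3). The log2 fold change was 0.02 with a standard error (SE) of 0.036 and an adjusted p of 0.874 by edgeR, and its 95% interval of -0.06 to 0.10 corresponds to 0.959- to 1.07-fold. For the carboxylase Acaca the values were 101, 104 and 105 CPM with vehicle and 107, 115 and 104 CPM with Shh. Shh replicate 2 was the highest library and Shh replicate 3 lay within the vehicle range. Its log2 fold change was 0.07 (SE 0.047, adjusted p of 0.599 by edgeR). Of the 50-base windows of the longest GENCODE M21 transcript of Acaca, 52.6% were also in another gene model, Gm5182, so its counts are uncertain where reads of that copy were counted with it.

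Acacb, the carboxylase whose malonyl-CoA restrains fatty acid entry into mitochondria, was near the floor of the measurement. It had 47, 58 and 52 counts with vehicle (2.35, 2.89 and 2.57 CPM) and 82, 40 and 46 counts with Shh (4.06, 1.93 and 2.26 CPM). Shh replicate 1 was above every other library, and the other 2 Shh libraries were below every vehicle library. The fitted log2 fold change of 0.08 (SE 0.26, adjusted p of 0.930 by edgeR) had an interval of -0.48 to 0.63, and without Shh replicate 1 it was -0.31.

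Fasn, the synthase itself, had 792, 783 and 774 CPM with vehicle and 795, 826 and 745 CPM with Shh. The Shh libraries lay on both sides of the vehicle range, with an SD of 41.0 CPM around 788 CPM against 9.18 CPM around 783 CPM with vehicle (n = 3 each). Its log2 fold change was 0.01 (SE 0.044, 95% interval -0.09 to 0.11, adjusted p of 0.948 by edgeR). In this fit the interval corresponds to 0.942- to 1.08-fold. With an offset for transcript length, described below, the log2 fold change was -0.08, so the interval does not cover the choice of fit. By Pearson's r of log2 CPM over the 6 libraries, the most similar patterns among 9601 genes of at least 5 CPM were those of Mast3 (0.99), Slc7a5, Sidt2, Myadm and Ccdc125 (each 0.98). Among the other members of at least 5 CPM, r with Fasn ran from 0.0831 for Elovl6 to 0.696 for Acaca. These values describe 6 libraries that share the differences between libraries and carry no test.

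Me1, which gives NADPH from malate, had 350, 352 and 359 CPM with vehicle and 349, 359 and 349 CPM with Shh. The groups overlapped almost fully, and the log2 fold change was -0.0059 (SE 0.037, 95% interval -0.09 to 0.08, adjusted p of 0.965 by edgeR). Of its 50-base windows, 32.8% were shared with other gene models, mostly Gm7049.

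Elovl6 was the member whose libraries departed most from vehicle for their spread. With vehicle it had 80.2, 78.5 and 82.3 CPM, and with Shh 81.4, 96.9 and 93.4 CPM. Shh replicates 2 and 3 were above all vehicle libraries, while Shh replicate 1 lay inside their range, so the groups overlapped. Means were 80.3 ± 1.90 and 90.6 ± 8.14 CPM (SD, n = 3), and the fitted fold was 1.13 (95% interval 1.03 to 1.24). On the log2 scale this was 0.17 (SE 0.061), with an unadjusted p of 0.0142 and an adjusted p of 0.469 by edgeR. It remained above 0 in all 15 alternatives, from 0.08 to 0.24, with adjusted p from 0.0423 to 0.994, and passed the threshold in 1 of them, without Shh replicate 1, where 195 of all genes passed. Without Shh replicate 2, the library farthest from vehicle, it was 0.12.

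The desaturases differed by less than the spread between libraries. Scd1, the main form of adult liver, had 432, 452 and 446 CPM with vehicle and 460, 461 and 435 CPM with Shh (log2 fold change 0.03, SE 0.041, adjusted p of 0.830 by edgeR). Shh replicates 1 and 2 were the highest libraries and Shh replicate 3 was within the vehicle range. For Scd2 the vehicle libraries were close together at 1770, 1760 and 1756 CPM, and the Shh libraries had 1755, 1852 and 1772 CPM (log2 fold change 0.03, SE 0.039, adjusted p of 0.833 by edgeR). Scd2 was lowest in Shh replicate 1 and highest in Shh replicate 2. The paralogs share 50-base windows with each other and with Scd3 and Scd4 (4.66% of the Scd1 windows, 4.01% of the Scd2 windows), and their deposited counts were not whole numbers.

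Srebf1 had 249, 252 and 235 CPM with vehicle and 243, 243 and 231 CPM with Shh. All but Shh replicate 3 lay within the vehicle range, and means were 245 ± 8.86 and 239 ± 7.13 CPM (SD, n = 3). Its log2 fold change of -0.04 (SE 0.043, 95% interval -0.13 to 0.05, adjusted p of 0.757 by edgeR) stayed below 0 in all 15 alternatives, from -0.08 to -0.01. The counts are per gene and join the transcripts of both SREBP1 forms, and RNA does not show how much of the factor is cut and nuclear.

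Mlxipl, the factor that responds to sugar, had 31.0, 31 and 27.4 estimated counts with vehicle (1.55, 1.54 and 1.36 CPM) and 49, 31 and 24 with Shh (2.43, 1.49 and 1.18 CPM). As for Acacb, Shh replicate 1 was the highest library. The log2 fold change of 0.20 was the largest of the members and the least certain (SE 0.28, 95% interval -0.41 to 0.81, adjusted p of 0.815 by edgeR), and without Shh replicate 1 it was -0.14. The interval reaches from 0.755- to 1.75-fold. The SD was 0.649 CPM with Shh and 0.108 CPM with vehicle (n = 3 each).

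Markers of other cell types moved with these low members. In Shh replicate 1, 5 of 6 adipocyte markers were higher than in any other library, as were 5 of 5 macrophage markers measured and 6 of 6 markers of stellate cells and fibroblasts. Many of these were low, as 2 adipocyte, 1 macrophage and 3 stellate cell and fibroblast markers had a mean of at least 5 CPM. The share of all genes that were highest in Shh replicate 1 was not counted. Summed adipocyte markers were 23.6 to 26.3 CPM with vehicle, 42.7 CPM in Shh replicate 1, and 16.6 and 16.1 CPM in Shh replicates 2 and 3. Cfd had 15.4 CPM in Shh replicate 1 against 6.74 to 8.36 CPM with vehicle, Adipoq 2.67 against 1.15 to 1.43 CPM, and Lep was at 0 or near it throughout. Summed macrophage markers were 18.9 to 20.0 CPM with vehicle and 25.8, 15.6 and 15.4 CPM in the 3 Shh libraries, and those of stellate cells and fibroblasts 19.5 to 33.4 CPM against 51.3, 16.9 and 15.8 CPM. Adgre1, a defining macrophage marker, reached 0.445 CPM in Shh replicate 1 and at most 0.148 CPM elsewhere, and Lrat of stellate cells was at or near 0 in all libraries. Endothelial markers summed to 1.20 to 2.34 CPM with vehicle and 1.23 to 2.77 CPM with Shh, and cholangiocyte markers to 238 to 246 and 237 to 247 CPM. Thrsp, a lipogenic co-regulator of liver and fat, followed the low members with 1.85, 2.49 and 2.57 CPM with vehicle and 4.80, 1.20 and 1.42 CPM with Shh, and Gpd1 had 22.4 CPM in Shh replicate 1 against 10.8 to 15.8 CPM in the other libraries. Over all genes tested, 104 (0.846%) were at least 1.5-fold above every other library in Shh replicate 1, against 6 to 11 in each of the other 5 libraries. The part of these markers in the values of Acacb and Mlxipl was not tested. A change in how many cells carry such RNA and a change in its amount per cell cannot be told apart in bulk samples.

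**Figure D3:**
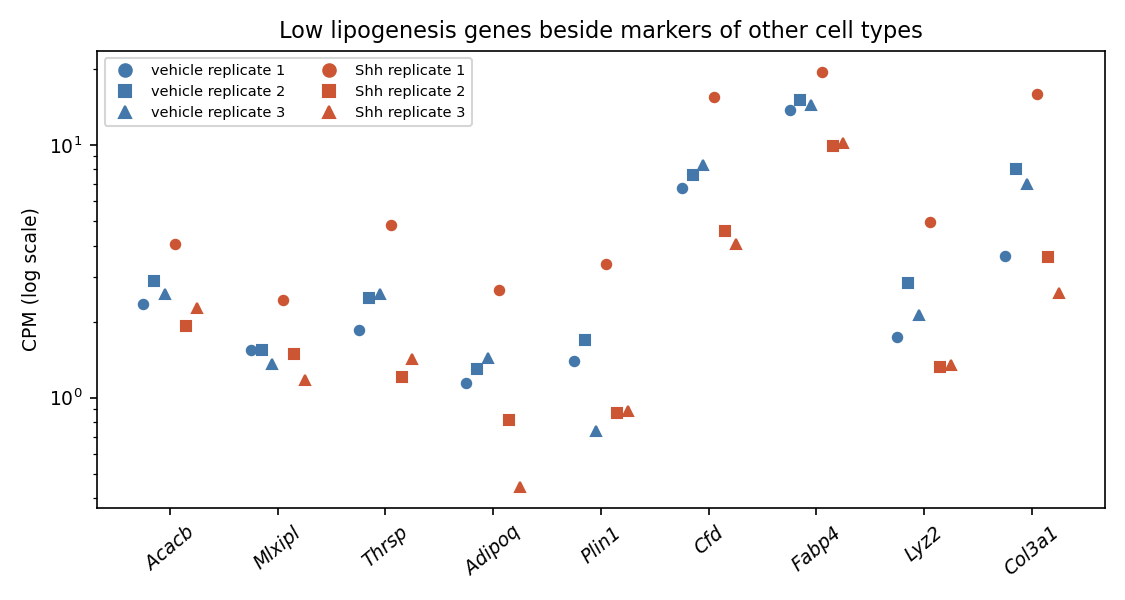
CPM (vertical axis, log scale) of the low lipogenesis genes Acacb and Mlxipl and the co-regulator Thrsp beside the adipocyte markers Adipoq, Plin1, Cfd and Fabp4, the macrophage marker Lyz2 and the fibroblast marker Col3a1, with vehicle libraries in blue and Shh libraries in red. Shh replicate 1 (red circle) is the highest library for all 9 genes, whose markers are only part of their lists. Over the full lists it was highest for 5 of 6 adipocyte, 5 of 5 macrophage and 6 of 6 stellate cell and fibroblast markers. It was highest for 3 of 4 endothelial and 0 of 4 cholangiocyte markers.

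Ratios within a library, which do not depend on scaling between libraries, were compared for 4 pairs. The count ratio of Srebf1 to Srebf2, its sterol-responsive relative, was 0.892, 0.911 and 0.868 with vehicle and 0.858, 0.818 and 0.870 with Shh. Shh replicate 3 lay above the lowest vehicle library, so the groups overlapped, and the log2 difference was -0.07 (exact permutation test, two-sided, p = 0.2, Benjamini-Hochberg adjusted over 4 ratios 0.8). As a ratio of deposited FPKM the groups just failed to overlap, with 0.9587 in Shh replicate 3 and 0.9588 in vehicle replicate 3. The log2 difference was again -0.07 (exact permutation test, p = 0.1), so the overlap depended on the measure. The ratio of Scd1 to Scd2 was 0.244, 0.257 and 0.254 with vehicle and 0.262, 0.249 and 0.245 with Shh (exact p = 1). Acaca had 43.1, 36.1 and 40.8 times the count of Acacb with vehicle and 26.5, 59.6 and 45.9 times with Shh (exact p = 0.8), and Srebf1 had 161, 163 and 173 times that of Mlxipl against 100, 163 and 196 times (exact p = 0.8). With 3 libraries against 3 this test cannot go below 0.1.

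Members are long transcripts, and the Shh libraries differed from vehicle along transcript length. The median length behind the members' counts was 5096 bases, beside 2751 bases for all genes tested. A smooth trend of each library's deviation on length gave 0.03, 0.16 and 0.07 for Fasn on the log2 scale in the 3 Shh libraries in order. Elovl6 deviated by 0.02, 0.27 and 0.22 in Shh replicates 1, 2 and 3 relative to the vehicle mean, where the trend at its length was 0.02, 0.12 and 0.05. Fitted with this trend as an offset, Elovl6 was 0.11 above vehicle (adjusted p of 0.832 by edgeR). With the same offset the log2 fold changes of Acly, Acaca, Acacb, Fasn, Scd1 and Scd2 fell on the other side of 0, at -0.03, -0.02, -0.0007, -0.08, -0.03 and -0.04, and the members' median was -0.026. The direction of these 6 members thus depended on the offset.

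**Figure D4:**
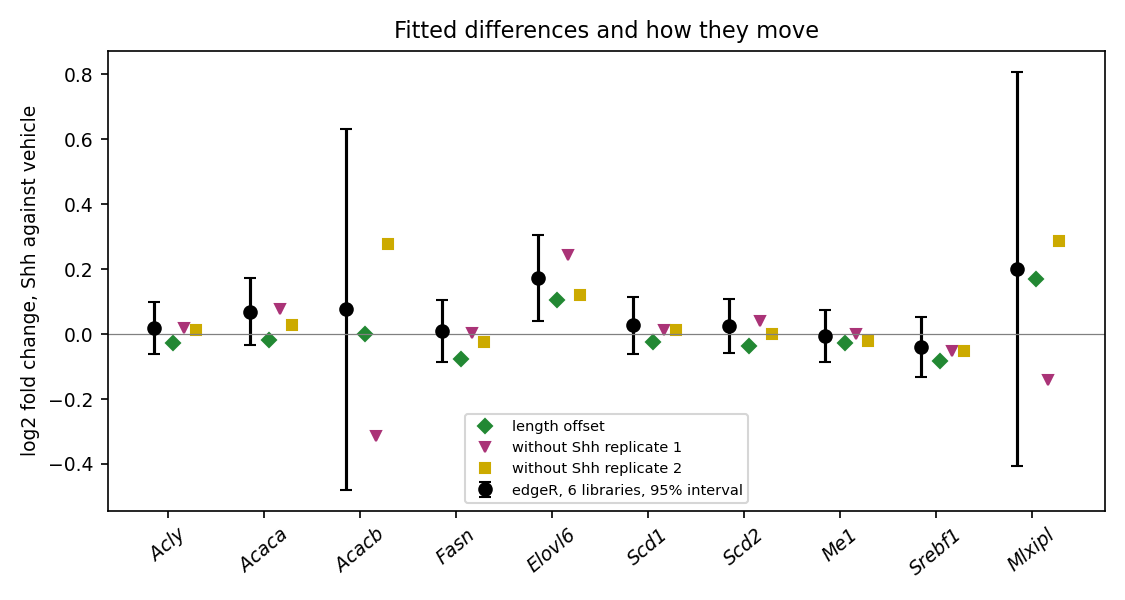
Log2 fold change of each lipogenesis gene, Shh against vehicle, fitted by edgeR on 6 libraries (black, bars are 95% intervals) with the value under the length offset (green), without Shh replicate 1 (purple) and without Shh replicate 2 (yellow). Elovl6 is above 0 in all 4 values and Srebf1 below 0 in all 4, while Acacb and Mlxipl fall below 0 without Shh replicate 1.

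Genes around the pathway were read from the same fit in 6 lists, and none of those tested passed an adjusted p of 0.05 by edgeR. Of 12 genes that process or stabilise SREBP, 9 were above 0 and the median log2 fold change was 0.03. With the length offset 6 were above 0 and 6 below (median -0.0053), and without Shh replicate 2 the split was 5 and 7 (median -0.0036), so the list had no stable direction. Mbtps2, the protease that makes the second cut in SREBP, had 37.8, 36.7 and 36.7 CPM with vehicle and 38.5, 43.7 and 39.5 CPM with Shh, all Shh libraries above all vehicle libraries (log2 fold change 0.13, SE 0.057, adjusted p of 0.477 by edgeR). Mbtps2 was the 1 gene of the list without overlap, beside 6.79% of all genes with every Shh library above every vehicle library. Its log2 fold change was 0.07 without Shh replicate 2. Scap, the escort of SREBP, was at 0.05, its retention factors Insig1 and Insig2 at 0.10 and -0.04, and Srebf2 at 0.03 on the log2 scale. Hsp90ab1, the chaperone studied with Shh in this work, had 2298, 2294 and 2296 CPM with vehicle and 2334, 2276 and 2284 CPM with Shh, a log2 fold change of 0.0012 (SE 0.037). The paper reports that Shh raised the protein of this gene, while its RNA was unchanged with an inhibitor and an activator of the pathway. Protein was not measured in these libraries.

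Among 12 genes that supply citrate, acetyl-CoA and NADPH, 10 were below 0, with a median of -0.03, and the same number were below 0 with the length offset. Without vehicle replicate 3 or without Shh replicate 1, 8 were below 0. By limma on log2(FPKM + 1) 7 were below 0 (median -0.0072), where the median of all genes tested was 0.0203. The list's median was below 0 in every setting. Slc25a1, the mitochondrial carrier that exports citrate to Acly, had 154, 156 and 153 CPM with vehicle and 146, 130 and 141 CPM with Shh. Every Shh library was below every vehicle library, and the log2 fold change was -0.15 (SE 0.047, 95% interval -0.25 to -0.05), with an unadjusted p of 0.00795 and an adjusted p of 0.469 by edgeR. It stayed below 0 in 15 of 15 alternatives, from -0.18 to -0.09. Pgd and G6pdx, the NADPH-forming enzymes of the pentose phosphate pathway, also had no overlap between groups, at -0.06 and -0.04, so that 3 of 12 had every Shh library below every vehicle library, beside the 8.67% of all genes given above.

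Of 13 other genes of elongation and desaturation tested, 8 were below 0 and the median was -0.05, beside 6001 of the 12286 genes tested below 0. Tecr, the reductase that closes each cycle, had 231, 229 and 224 CPM with vehicle and 225, 206 and 205 CPM with Shh (log2 fold change -0.10, SE 0.044, adjusted p of 0.472 by edgeR), and -0.03 with the length offset. For the elongase Elovl1 the values were 167, 168 and 167 CPM against 164, 152 and 153 CPM, with no overlap (log2 fold change -0.10, SE 0.042, adjusted p of 0.477 by edgeR). Elovl2, which lengthens polyunsaturated acids, had 3.24, 3.59 and 3.46 CPM with vehicle and 4.45, 3.90 and 4.12 CPM with Shh, also without overlap but on the higher side (log2 fold change 0.28, SE 0.14). Over the 13 genes, 3 had every Shh library below every vehicle library, beside 8.67% of all genes. The 1 gene with every Shh library above stood beside 6.79% of all genes.

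Of 14 co-regulators, 9 were below 0 and the median was -0.02. Mid1ip1, which promotes the assembly of active acetyl-CoA carboxylase, was the 1 gene of the list without overlap, at 145, 152 and 146 CPM with vehicle and 141, 134 and 141 CPM with Shh (log2 fold change -0.09, SE 0.041), beside the 8.67% of all genes with every Shh library below every vehicle library. Of 6 tested targets of ChREBP in sugar metabolism 3 were above 0 and 3 below, with a median of -0.0027. Of 11 genes of AMPK and malonyl-CoA control 5 were above 0 and 6 below, with a median of -0.01, and none of either list had an unadjusted p under 0.05 by edgeR.

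**Figure D5:**
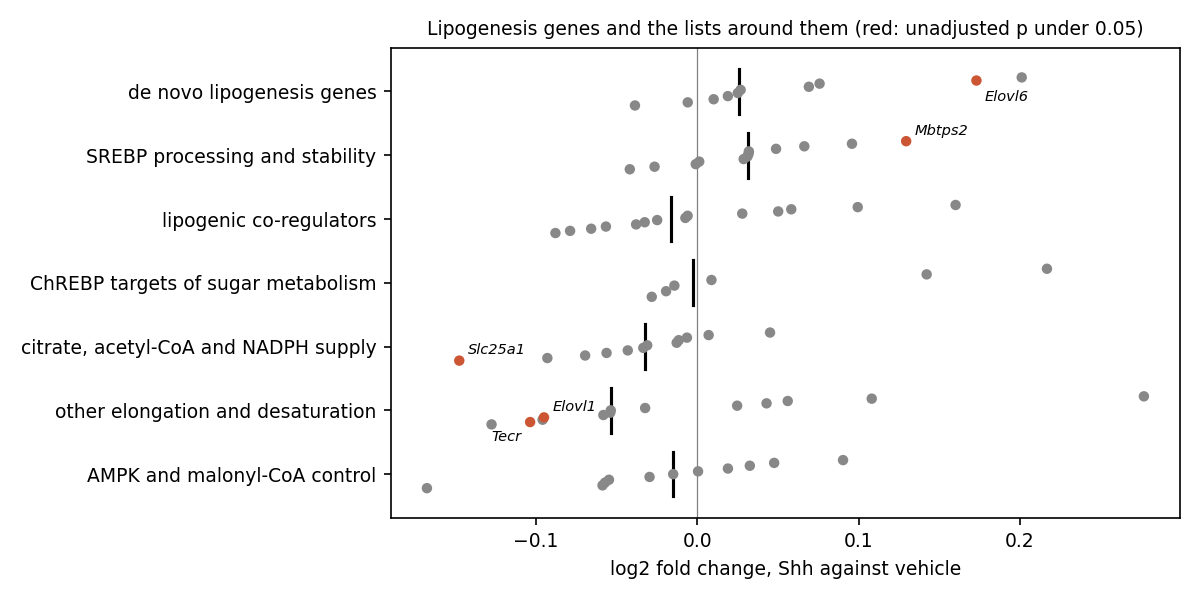
Log2 fold change of Shh against vehicle (horizontal axis) for the lipogenesis genes and the 6 lists around them, 1 point per gene tested and a black bar at each median. Red points have an unadjusted p under 0.05, namely Elovl6 and Mbtps2 above 0 and Slc25a1, Tecr and Elovl1 below 0.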

How the data were processed

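Poly(A) RNA of Hepa 1–6 cells was sequenced by the authors as single-end reads of 50 bases, with 3 libraries for Shh and 3 for vehicle. The deposited table holds estimated counts per gene, of which 36.4% of those above 0 are fractional. It also holds FPKM values, in which the authors corrected for transcript length and for library size. Columns named control in the file were taken as the libraries labelled vehicle. Bowtie2 appears in the submitters' processing notes with no version. Which tool counted the reads, on which build and annotation, is not given in the sources used here. A further 6 per-sample columns in another unit were not used. Sample labels and paper name the cell line, and were followed over the series' design text, which mentions exosomes of liver.

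Counts were rounded and fitted in R 4.3.3 with edgeR 4.0.16 (quasi-likelihood test with group as the only term, TMM factors, and filterByExpr requiring a count of 10 and a total of 15), with Benjamini-Hochberg adjustment over all 12286 genes tested and 95% intervals. CPM used TMM library sizes. Levels of different genes were compared as FPKM, and lengths were taken from the ratio of counts to FPKM where FPKM was at least 0.2. Ratios within a library were compared by exact permutation tests. The same results were also computed with DESeq2 1.42.0, with upper-quartile scaling, without a filter, with a filter of 5 CPM in 3 or more libraries, with a block for the replicate number, with an offset for the length of the transcript (per library, a spline of 5 degrees of freedom), with block and offset, without each library in turn, and with limma 3.58.1 on log2(FPKM + 1). The length offset without Shh replicate 2 was chosen after seeing the data. The edgeR test was tested on simulated data.

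The members and the gene lists were chosen with earlier results of these data known. All members are named, with the genes of each list among the 4 of smallest p that are described, Srebf2, Hsp90ab1, Scap, Insig1, Insig2, Gli1 and Ptch1 whatever their values, the 5 genes most like Fasn, and G6pdx, Thrsp and Gpd1, which were chosen after their values were seen. Promoters came from RefSeq (GRCm38.p6) and shared 50-base windows from GENCODE M21, neither being known to be the build of the files.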

Additional observations from a re-analysis of the deposited data

How the results depend on the processing

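Over 15 alternatives, 125 of 148 member values kept their direction and 1 passed the adjusted threshold. Libraries with the same number did not deviate together (correlations of -0.0396, -0.0537 and 0.0982), and the replicate block left the members' median at 0.026 with 0 called. The length offset gave the values in the report for Acly (-0.0269), Acaca (-0.0174), Acacb (-0.000704), Fasn (-0.0767), Scd1 (-0.0257) and Scd2 (-0.0358), with a median of -0.0258. In that fit 3 members had an unadjusted p under 0.05, Elovl6 above 0 and Fasn and Srebf1 below 0. Each had an adjusted p of 0.832 by edgeR. Under the same offset Srebf2 was -0.0193 and Ptch1 -0.0471. For the fits with this offset, or leaving out a library, the share of all genes at an unadjusted p under 0.05 was not counted. Whether the counts of members in those fits were many or few therefore cannot be said. The replicate block and length offset together gave Acly -0.0270, Acaca -0.0178, Acacb -0.0411, Fasn -0.0776, Scd1 -0.0260, Scd2 -0.0358, Srebf2 -0.0199 and Ptch1 -0.0450, with a median of -0.0265 and 3 members. The length offset without Shh replicate 2, chosen after seeing the data, gave Acly -0.0173, Acaca -0.0214, Fasn -0.0733, Scd1 -0.0194, Scd2 -0.0340, Srebf2 -0.0387, Scap -0.0446, Hsp90ab1 -0.00069, Gli1 -0.0832 and Ptch1 -0.0490, with a median of -0.0204 and 0 members. limma turned Me1 to 0.0182, where the median of all genes tested was 0.0203 against 0.0028 in the main fit. No filter turned Hsp90ab1 to -0.00108. In each case the cause was not tested.

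Leaving out 1 library at a time, the members called were 0 to 1, those at an unadjusted p under 0.05 were 0 to 1 (0 without Shh replicate 2, Shh replicate 3 or vehicle replicate 2) and all genes called 0 to 195, the highest without Shh replicate 1. The median ran from 0.0088 to 0.0514, the highest without Shh replicate 3. Acacb ran from -0.315 (without Shh replicate 1) to 0.277, Mlxipl from -0.142 (without Shh replicate 1) to 0.405, Fasn from -0.025 (without Shh replicate 2) to 0.0491, Me1 from -0.02 to 0.00658 (above 0 without Shh replicate 1 or vehicle replicate 3), Hsp90ab1 from -0.0104 to 0.00769, Gli1 from -0.0599 to 0.104, Ptch1 from -0.0328 to 0.0725, Scap from -0.0173 to 0.0932 and Srebf2 from -0.00817 to 0.0735. The log2 ratios moved from -0.196 to 0.390 for Acaca to Acacb, from -0.0267 to 0.0216 for Scd1 to Scd2 and from -0.376 to 0.107 for Srebf1 to Mlxipl. Srebf1 to Srebf2 ran from -0.0872 (without Shh replicate 3) to -0.0427 (without Shh replicate 2).

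Over all genes, edgeR called 1 gene with the length offset, 3 with the block as well, 1 without a filter and 2 with the length offset without Shh replicate 2. Acacb, Mlxipl, Gli1 and Elovl2 gave no value with the filter of 5 CPM. The members' 2 lowest genes rest on 24 to 82 counts per library. In the main fit the 95% intervals of the other 8 leave room for differences up to 1.24-fold. That limit, from Elovl6, holds for the main fit only, as Elovl6 ran from 0.08 to 0.24 on the log2 scale over the alternatives.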
